A study of Mus musculus with 12 samples.

Results

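The 14 SNPs described here are those for which amplicons were made from liver mRNA and from genomic DNA (gDNA) but not from muscle mRNA. They were chosen by the template named for each amplicon in the deposited files, and they are 14 of 89 SNPs in all; 50 SNPs were assayed in both tissues and 25 in muscle alone. The mice were first-generation (F1) offspring of crosses between inbred strains, aged 4 weeks, with 2 littermates pooled for RNA in each cross. The members came from 4 of the 5 crosses, with 5 SNPs segregating in WSB/EiJ-MOLF/EiJ, 4 each in FVB/NJ-PWD/PHJ and CAST/EIJ-PWD/PHJ, 1 in A/J-C57BL/6J and none in A/J-DBA/2J. Every animal carried both parental genomes and no transgene or treatment is named in the labels.

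MicroRNAs are short RNAs that pair, mainly through a stretch near their 5′ end called the seed, with sites in mRNAs and lower the amount or the translation of those mRNAs. miR-122 is abundant in hepatocytes, whereas miR-1 and miR-133 are typical of muscle. In an F1 animal both alleles of an autosomal gene sit in the same nucleus and meet the same factors, so an unequal amount of their mRNA points to what differs between the chromosomes themselves, in sequence or by parent of origin. The series set out to measure such differences at SNPs in sites for miR-122, miR-1 and miR-133 and in control sites, with gDNA as the control for PCR that favours an allele. Which kind of site each member lies in, which gene holds it on which chromosome, and which strain carries each allele were not analysed here. The liver label was not checked against marker genes, since the measurements are allele ratios.

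A primer pair defined each amplicon, and the same pair was used on gDNA and on liver cDNA. The pairs below belong to the 5 members called under every error model given further on, and to rs49885659, the member with the smallest shift. They are shown because they fix what was amplified from both templates. Each is written 5′ to 3′, and the capitals mark the last 5 bases, the 3′ end from which the polymerase extends.
rs38561286 forward: tgctgtcaacatttccttTTTGC
rs38561286 reverse: agagctgcagggctctCTTGT
rs51877709 forward: tctcctgcctgaccttTTCCT
rs51877709 reverse: aaagggactcctcgctTGAAA
rs39724342 forward: cctagcatgtcccataGCTGC
rs39724342 reverse: cccctctgtgacgagaaGAGTT
rs27829110 forward: cccagcttcttcatctTCCCT
rs27829110 reverse: tgtgcagacgtgcttcTTAGG
rs32688377 forward: actgcctccagaatagGCTCA
rs32688377 reverse: gaagtgatggcctaccTTCCA
rs49885659 forward: aaagtcagagcctggaTTGGG
rs49885659 reverse: aagacatggatggctgAGGTG

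The 28 primers of the members were all different, so no member shared a primer with another. They were 21 to 24 bases long with a median G+C content of 52.4%, the same median as over all 178 primers of the series. The lowest G+C content among the members' primers, 39.1%, was that of the forward primer of rs38561286, the member with the most uneven gDNA. Their highest, 59.1%, was that of the reverse primer of rs32323885. Over all primers of the series the range was 30.8% to 61.9%. A link between G+C content and uneven gDNA was not tested. Of the 14 SNPs, 12 were transitions (A/G or C/T), and the transversions were rs32325030 (C/G) and rs39724342 (A/T).

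The measured quantity was the number of reads of each allele of an amplicon. Each of 3 sequencing runs re-read the same amplicons, so the SD over runs (n = 3) is technical. The 9 libraries that hold the members had 41332 to 101347 allele reads each, the fewest in run 3 of pool 4, in which 10 members had their liver amplicon. Summed over runs, a member had 1435 to 10056 reads in liver mRNA (median 3325.5) and 2058 to 4883 in gDNA (median 4316). The number of reads says nothing of expression, since amplicons were mixed in equal amounts. Each cross had 1 pooled RNA preparation and 1 amplification per template, so no interval or p-value here covers the spread between animals. The intervals and exact tests cover only counting error between these amplicons, and the error models given further on allow for more. Reads carry no molecular identifiers and are not independent molecules.

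The comparison of liver mRNA with gDNA asks which alleles differ in transcript level in liver. Calls used Fisher's exact test (two-sided, adjusted p under 0.05 over the 64 SNPs with liver mRNA). The allele ratio differed between liver mRNA and gDNA at 9 of the 14 members, against 65.6% of those 64 SNPs. The members' share of 64.3% was thus near the background. The 9 shifts ran from 1.17-fold to 2.16-fold with a median of 1.35-fold. Error models that allow for more than counting called fewer. A quasi-binomial model called 6 members (40.6% of the 64 SNPs). It takes its spread from the runs, never below counting error, and uses an F test that allows for the small number of runs. A model that adds variance between amplicons, taken from the gDNA ratios of all SNPs, called 5 (40.6% of the 64 SNPs). Those 5, rs38561286, rs51877709, rs39724342, rs27829110 and rs32688377, were called by all of these tests. The added variance follows the typical gDNA ratio (SD 0.0754 on the log2 scale). At rs38561286 the gDNA ratio of 5.08 lay far outside it, so its call there does not allow for a bias of that size. A fold is the allele ratio in liver mRNA over that in gDNA, with 0.5 added to each count.

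The steepest shift was at rs38561286 in FVB/NJ-PWD/PHJ, where C already outnumbered T in gDNA. C made up 85.2%, 82.0% and 82.8% of the gDNA reads in runs 1, 2 and 3, and 90.5%, 91.3% and 92.9% of the liver mRNA reads. The runs of the templates did not overlap. The mean share rose from 83.4% ± 1.68 to 91.6% ± 1.22 (SD, n = 3 runs). In reads summed over runs, with 0.5 added to each count, the ratio of C over T was 5.08 in gDNA and 10.97 in liver mRNA. The shift was 2.16-fold (95% interval 1.77 to 2.64; adjusted p = 7.61e-14 by Fisher's exact test). It also varied most between runs among the called members, at 1.64-fold, 2.29-fold and 2.71-fold. T had 40 to 62 liver reads in a run. In share of reads, this shift of 8.23 percentage points was smaller than those at rs51877709, rs27829110 and rs39724342.

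At rs51877709 in WSB/EiJ-MOLF/EiJ, gDNA was even and liver mRNA was not. G made up 49.5%, 50.0% and 51.6% of the gDNA reads and 64.8%, 67.0% and 69.5% of the liver reads, so all liver runs lay above all gDNA runs. The mean share rose by 16.7 percentage points, from 50.4% ± 1.11 to 67.1% ± 2.35 (SD, n = 3 runs), the widest change in share among the members. The shift was 1.94-fold (1.71 to 2.19; adjusted p = 1.77e-24 by Fisher's exact test) and lay between 1.88-fold and 2.13-fold in the separate runs. These first 2 SNPs were the only members with at least a 1.5-fold shift, a size reached by 14.1% of the 64 SNPs.

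A further 3 members shifted by 1.35-fold to 1.45-fold. At rs39724342 in WSB/EiJ-MOLF/EiJ, T took 44.3%, 51.0% and 46.8% of the gDNA reads and 56.5%, 56.1% and 57.1% of the liver reads. Liver runs were close together and gDNA runs were spread, with SDs of 0.468 and 3.41 percentage points, and the templates did not overlap. T rose 1.45-fold relative to A (1.30 to 1.63; adjusted p = 1.17e-10 by Fisher's exact test), with 1.23-fold in run 2, where gDNA was even, and 1.63-fold in run 1.

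At rs27829110 in CAST/EIJ-PWD/PHJ, C took 48.7%, 47.7% and 48.7% of gDNA reads and 57.6%, 57.1% and 59.0% of liver reads. This was the steadiest of the larger shifts, at 1.43-fold, 1.45-fold and 1.51-fold in the 3 runs. Summed, C rose 1.45-fold relative to T (1.33 to 1.58; adjusted p = 4.19e-16 by Fisher's exact test). At rs32688377, of the same cross, A took 49.3%, 49.6% and 52.8% of gDNA reads and 56.7%, 59.5% and 58.1% of liver reads. Again no liver run fell among the gDNA runs. A rose 1.35-fold relative to G (1.24 to 1.48; adjusted p = 1.10e-10 by Fisher's exact test).

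The other 4 called members had shifts of 1.17-fold to 1.20-fold, and the call depended on the error model. At rs27864097 in WSB/EiJ-MOLF/EiJ, T took 52.0%, 49.6% and 47.9% of gDNA reads and 54.2%, 53.7% and 55.9% of liver reads, a 1.20-fold shift (1.11 to 1.31; adjusted p = 3.18e-05 by Fisher's exact test). The gap between templates was 1.09-fold in run 1 and 1.38-fold in run 3, and neither the quasi-binomial model (adjusted p = 0.0663) nor the model with extra variance (adjusted p = 0.0610) called it. At rs32325030 in FVB/NJ-PWD/PHJ, the member with the most liver reads, G took 50.6%, 51.7% and 51.0% of gDNA reads and 54.2%, 55.2% and 57.0% of liver reads. This was also a 1.20-fold shift (1.12 to 1.29; adjusted p = 1.69e-06 by Fisher's exact test), called by the quasi-binomial model (adjusted p = 0.0411) and not with extra variance (adjusted p = 0.0604).

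At rs32323885 in CAST/EIJ-PWD/PHJ, C took 45.8%, 46.8% and 46.4% of gDNA reads and 50.0%, 51.1% and 49.7% of liver reads. The liver mRNA itself was even, and the 1.17-fold shift towards C (1.05 to 1.31; adjusted p = 0.00698 by Fisher's exact test) is measured against gDNA in which T was in excess. Against 1:1 without gDNA, the liver reads gave an adjusted p of 0.823 (exact binomial test). The quasi-binomial model and the one with extra variance did not call it (adjusted p = 0.0957 and 0.143). Its runs were spread less than counting error alone (0.130, where 1 is counting error), so spread between runs did not raise the quasi-binomial p-value. At rs26957250 in WSB/EiJ-MOLF/EiJ, T took 51.5%, 47.4% and 48.6% of gDNA reads and 54.2%, 53.2% and 49.1% of liver reads. This was the only called member whose runs overlapped between the templates. Its 1.17-fold shift (1.08 to 1.27; adjusted p = 0.000177 by Fisher's exact test) was not called by the quasi-binomial model (adjusted p = 0.148) or with extra variance (adjusted p = 0.110). It was also lost without run 2 (adjusted p = 0.0518 by Fisher's exact test).

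At 5 members no shift was detected at this depth, and their 95% intervals lay within 0.878-fold and 1.15-fold. Those intervals cover only the counting error of the summed reads. Spread between runs was 0.976 (rs30870586) to 4.00 (rs49610656), where 1 is counting error. Folds in single runs went beyond these limits at rs49610656 (0.893 to 1.32), rs48677813 (0.934 to 1.21) and rs49885659 (0.756 to 1.10). They did not at rs27032232 and rs30870586. The alleles are named by the direction of the summed reads, which was the same in all runs only at rs27032232. At rs27032232 in A/J-C57BL/6J, A took 50.2%, 52.9% and 50.6% of gDNA reads and 50.6%, 53.3% and 53.4% of liver reads (1.04-fold, 0.954 to 1.13). At rs48677813 in CAST/EIJ-PWD/PHJ, A took 46.2%, 50.7% and 45.6% of gDNA reads and 47.8%, 49.0% and 50.3% of liver reads (1.05-fold, 0.965 to 1.13). The gDNA runs of this SNP were more spread than its liver runs.

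At rs30870586 in FVB/NJ-PWD/PHJ, G took 50.8%, 49.8% and 48.6% of gDNA reads and 48.3%, 51.3% and 50.9% of liver reads (1.01-fold, 0.925 to 1.11). At rs49610656 in WSB/EiJ-MOLF/EiJ, T took 49.4%, 49.4% and 49.7% of gDNA reads and 50.4%, 46.5% and 56.6% of liver reads (1.03-fold, 0.940 to 1.13). Its gDNA runs were the closest together of all members and its liver runs the furthest apart. At rs49885659 in FVB/NJ-PWD/PHJ, A took 50.2%, 48.8% and 51.0% of gDNA reads and 52.6%, 50.1% and 44.0% of liver reads (1.004-fold, 0.878 to 1.15). This SNP had the fewest reads of the members in both templates, and the low share in run 3 rests on 248 reads. The adjusted p-values of the 5 SNPs ran from 0.377 at rs48677813 to 0.973 at rs49885659 (Fisher's exact test).

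The liver and gDNA runs did not overlap at 8 of the 14 members, against 59.4% of the 64 SNPs with liver mRNA, and all 8 were called. Where liver and gDNA runs of the same number were set against each other, all 9 called members shifted in the same direction in every run, as did 30 of the 33 SNPs called among those assayed in both tissues. Runs that do not overlap must agree in direction, and the calls rest on the same reads, so this is not separate support. Between the 3 runs of an amplicon the allele counts differed at 1 of the members' 28 amplicons after adjustment, against 3.54% of 226 amplicons in the series (exact test on the 2 by 3 counts). It was the liver amplicon of rs49610656 (adjusted p = 0.0256 by the exact test). At an unadjusted p under 0.05 there were 4 such amplicons among the members' 28, near the background of 15.0% of the 226, the others being the liver amplicon of rs26957250 and the gDNA amplicons of rs39724342 and rs48677813.

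In gDNA, where 1:1 is the reference for an autosomal SNP, 4 of the 14 members departed from an even share, against 24.7% of the 89 SNPs (exact binomial test, two-sided, adjusted). The ratio of the larger to the smaller allele was 5.08 at rs38561286 (C over T; 95% Wilson interval of the C share 81.9% to 85.1%), 1.16 at rs32323885 (T over C), 1.12 at rs39724342 (A over T) and 1.10 at rs48677813 (G over A). The last 2 of these were not called without run 1 (adjusted p = 0.666 at rs39724342 and 0.164 at rs48677813) or without run 3 (0.171 and 0.344, exact binomial test). The allele that was in deficit in gDNA was the one that rose in liver at rs32323885 and rs39724342, while at rs38561286 the allele in excess rose further. At rs48677813 A was in deficit, and its shift of 1.05-fold was not called. Shifts are measured against gDNA, so an error in a gDNA share moves the shift the opposite way. Setting liver mRNA against 1:1 without gDNA also called 9 of the 14 members, against 70.3% of the 64 SNPs, with rs27032232 (adjusted p = 0.0105, exact binomial test) in the place of rs32323885.

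By cross, WSB/EiJ-MOLF/EiJ had 4 of 5 members called, CAST/EIJ-PWD/PHJ had 3 of 4, FVB/NJ-PWD/PHJ had 2 of 4 and A/J-C57BL/6J had 0 of 1 (adjusted p = 0.495 at rs27032232, Fisher's exact test; also above 0.05 before adjustment and with both other error models). The median shift was 1.20-fold, 1.26-fold, 1.10-fold and 1.04-fold in the same order. SNPs assayed in both tissues were called in liver at 11 of 12, 8 of 12, 6 of 10 and 7 of 15 in these crosses. With 1 to 5 members a cross, the differences between crosses were not tested. Within FVB/NJ-PWD/PHJ the members differed widely, from 2.16-fold at rs38561286 to 1.004-fold at rs49885659.

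The templates of a member never shared a pool. The 4 members with liver mRNA in pool 2 and gDNA in pool 1 (rs27864097, rs32325030, rs38561286 and rs39724342) were all called, with a median shift of 1.32-fold. Of the 10 members with liver mRNA in pool 4 and gDNA in pool 2, 5 were called, with a median of 1.11-fold. For the SNPs assayed in both tissues, 13 of 22 were called with liver in pool 2 and gDNA in pool 1 (median 1.17-fold), 2 of 2 with liver in pool 4 and gDNA in pool 2 (1.13-fold), and 18 of 26 with liver in pool 4 and gDNA in pool 1 (1.25-fold). Since pool and template differ together, their parts in a shift cannot be told apart.

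Set beside the 50 SNPs also assayed in muscle, the members had close values in these summaries, and the difference was not tested. The median shift over all members, called or not, was 1.19-fold, against 1.18-fold over the 50 SNPs and 1.18-fold over all 64. Calls were made at 64.3% of members and 66.0% of the 50 SNPs, and shifts of at least 1.5-fold at 2 of 14 and 7 of 50. The quasi-binomial model called 6 of 14 and 20 of 50, and extra variance between amplicons left 5 of 14 and 21 of 50. The largest shift among members, 2.16-fold at rs38561286, was below the largest among the 50 SNPs (2.59-fold). Among the 9 called members, the base that rose was T at 3, C at 3, G at 2 and A at 1. The base that fell was T at 3, C at 3, A at 2 and G at 1, and a preference for a base was not tested.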

How the data were processed

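The authors deposited raw counts of reads for the 2 alleles of each SNP, by amplicon and run, with template, cross and primers, per the file headers. Per the labels' protocols, about 0.6 g of liver per cross (0.3 g from each of 2 littermates) gave total RNA for random-primed cDNA, and about 50 mg of liver or muscle gave gDNA. Amplicons were mixed into 4 pools of about 60 and pyrosequenced in 3 runs. The genome build, and how reads were filtered and assigned, are not stated in the sources used here; sites and genes were not analysed here.

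Alleles were matched by base, since the allele listed first changed between files at 11 of 14 members, and counts were summed over runs. Fisher's exact test (liver mRNA against gDNA) and the exact binomial test (gDNA) were run on all 64 and 89 SNPs with Benjamini-Hochberg adjustment, calls below 0.05 and at least 20 reads per template, which all 14 members passed. An exact test compared runs over 226 amplicons. Intervals are 95%. All members are named by rule, and members, lists and tests were chosen with earlier results of these data known. Extra variance between amplicons had an SD of 0.0754 (log2). Fisher's exact test, the exact test between runs and the quasi-binomial model were tried on simulated counts with counting error only and even gDNA. Such counts cannot show how the tests behave with added spread between runs or amplicons. Python 3.11.15, numpy 2.4.6, scipy 1.17.1 and statsmodels 0.14.6 were used.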

Additional observations from a re-analysis of the deposited data

How the results depend on the processing

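The count of 9 called members was 9 with read minima of 10, 50 or none, 9 against 1:1, 9 without run 3 of pool 4 (an alternative chosen after seeing the data), 8 to 9 without 1 run, 6 with the quasi-binomial model, 5 with extra variance between amplicons and 2 when 1.5-fold was required. With the run number as a replicate block (tests stratified by run) it was also 9, and the median size of the shift was 0.24 on the log2 scale, against 0.25 without the block. The main tests summed the runs, since they are technical, and did not pair them. Deviations of liver and gDNA runs of the same number correlated at 0.20, -0.11 and -0.31 over 63 SNPs. Those of runs of different number correlated at -0.36 to 0.34. The folds given for single runs set runs of the same number side by side and depend on that matching. That median ranged from 0.23 to 0.26 without 1 run.

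The count of 4 skewed gDNA members was 2 to 4 without 1 run, 1 with extra variance and 1 with 1.5-fold required. The direction turned at 4 members, none of them called, in 11 of the 126 values from settings that recompute the ratio. On the log2 scale these were rs30870586 (-0.0010 against 1:1; -0.0302 to 0.115 without 1 run), rs48677813 (-0.0748 against 1:1; -0.0138 to 0.152 without 1 run), rs49610656 (-0.0433 without run 3 of pool 4; -0.0371 to 0.150 without 1 run) and rs49885659 (-0.0095 with the block, -0.0632 as a mean over runs; -0.0950 to 0.111 without 1 run). The cause was not tested.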
